A study of Rattus rattus with 8 samples.

Results

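The genes described here encode the enzymes of glycolysis, of pyruvate and lactate handling, of the citric acid cycle and of the neighbouring pentose phosphate and gluconeogenic steps, as expressed in the epithelium of the rat proximal colon. They were taken from a list of 45 gene symbols, of which 42 had a row among the 11762 genes of the deposited expression table, each with 1 row. Idh3b, Ogdh and Pgd had no row under these names and were not analysed here. The RNA was that of epithelium shaken off the proximal colon. The 8 libraries comprise 4 of the spontaneously hypertensive rat (SHR), an inbred strain that develops high blood pressure, and 4 of the Wistar-Kyoto rat (WKY), its related strain with normal pressure. Neither treatment nor age nor sex is given in the labels, which name the organism as Rattus rattus, whereas the identifiers in the table are Ensembl's for the brown rat. Libraries are numbered 1 to 4 within each strain, and nothing says that each is 1 animal, so the p-values below rest on the spread among libraries, which may be technical.

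Glycolysis splits glucose into pyruvate in the cytosol, and hexokinase, phosphofructokinase and pyruvate kinase set its pace. Pyruvate then either becomes lactate through lactate dehydrogenase or enters the mitochondrion, where the pyruvate dehydrogenase complex turns it into acetyl-CoA for the citric acid cycle. Colonic epithelial cells are known for burning butyrate made by gut bacteria in their mitochondria, so that much of the acetyl-CoA of the cycle need not come from glucose.

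Levels are given as FPKM, fragments scaled for transcript length and library size. This unit was worked out from the values and is not named by the files, and read depth is unknown. The FPKM of all genes summed to between 882295 and 1066833 per library. All 9 epithelial markers had a row, and their sum was 15527 to 17899 FPKM in SHR and 15755 to 18686 FPKM in WKY. Of them, only Krt18 fell past the threshold (log2 fold change -0.50, limma adjusted p = 0.0121), or 11.1% against 10.9% of all tested genes. The strains also did not overlap for 2 that did not pass. Krt19 was lower in SHR (-0.36, limma adjusted p = 0.0949) and Krt20 higher (0.32, limma adjusted p = 0.155). Over all tested genes 16.1% did not overlap. Epcam stood at 1520 to 1699 FPKM in SHR and 1555 to 1668 FPKM in WKY, and Krt8 was above 3862 FPKM in every library, while Ptprc, the common leukocyte antigen, was at 0.54 to 1.42 FPKM in SHR and 1.59 to 6.0 FPKM in WKY. Of 10 immune markers 4 had a row and summed to 5.73 to 19.6 FPKM in SHR and 12 to 41.2 FPKM in WKY, and Ptprc and Cd3g fell (adjusted p = 0.0205 and 0.0264). Their part in the strain differences below was not tested. Markers of endothelium, neurons and glia had no row. Of 6 fibroblast markers only Col3a1 had a row, at 0.02 to 1.59 FPKM in SHR and 0.11 to 1.89 FPKM in WKY, and of 5 smooth muscle markers 2 had one, summing to 2.25 to 4.14 FPKM in SHR and 2.05 to 3.16 FPKM in WKY. Fewer cells of a type and less RNA per cell cannot be told apart in such bulk libraries.

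For most of these enzymes no strain difference passed the test. Eno1, the enolase of glycolysis, was higher in SHR, while Pck2, the mitochondrial phosphoenolpyruvate carboxykinase, and Pdk3, a kinase that switches off pyruvate dehydrogenase, were lower. The test took genes reaching 1 FPKM in 4 or more libraries, which left out Ldhb and Pfkfb3 and kept 40 of the 42. With limma on log2(FPKM + 1) and Benjamini-Hochberg adjustment over all 11069 tested genes, 1 of the 40 rose, 2 fell and 37 did not pass the threshold of 0.05. That is 7.50% of them, where 10.9% of all tested genes passed, 3.40% higher and 7.48% lower in SHR. A p-value that misses the threshold does not show equal levels, so intervals were read as well. For 32 of the 40 (80.0%) the 95% interval of the difference lay within 1.5-fold either way, as it did for 66.4% of all tested genes. The median log2 fold change was -0.09 for the enzyme genes and -0.07 for all genes. The log2 fold change was negative for 31 of the 40 (77.5%, against 60.9% of all genes). It was so for 26 after median centring and for 27 with scaling that left out the 13 mitochondrially encoded genes. After quantile normalization it was negative for only 17 of 40, so the balance of signs depended on the scaling.

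**Figure D1:**
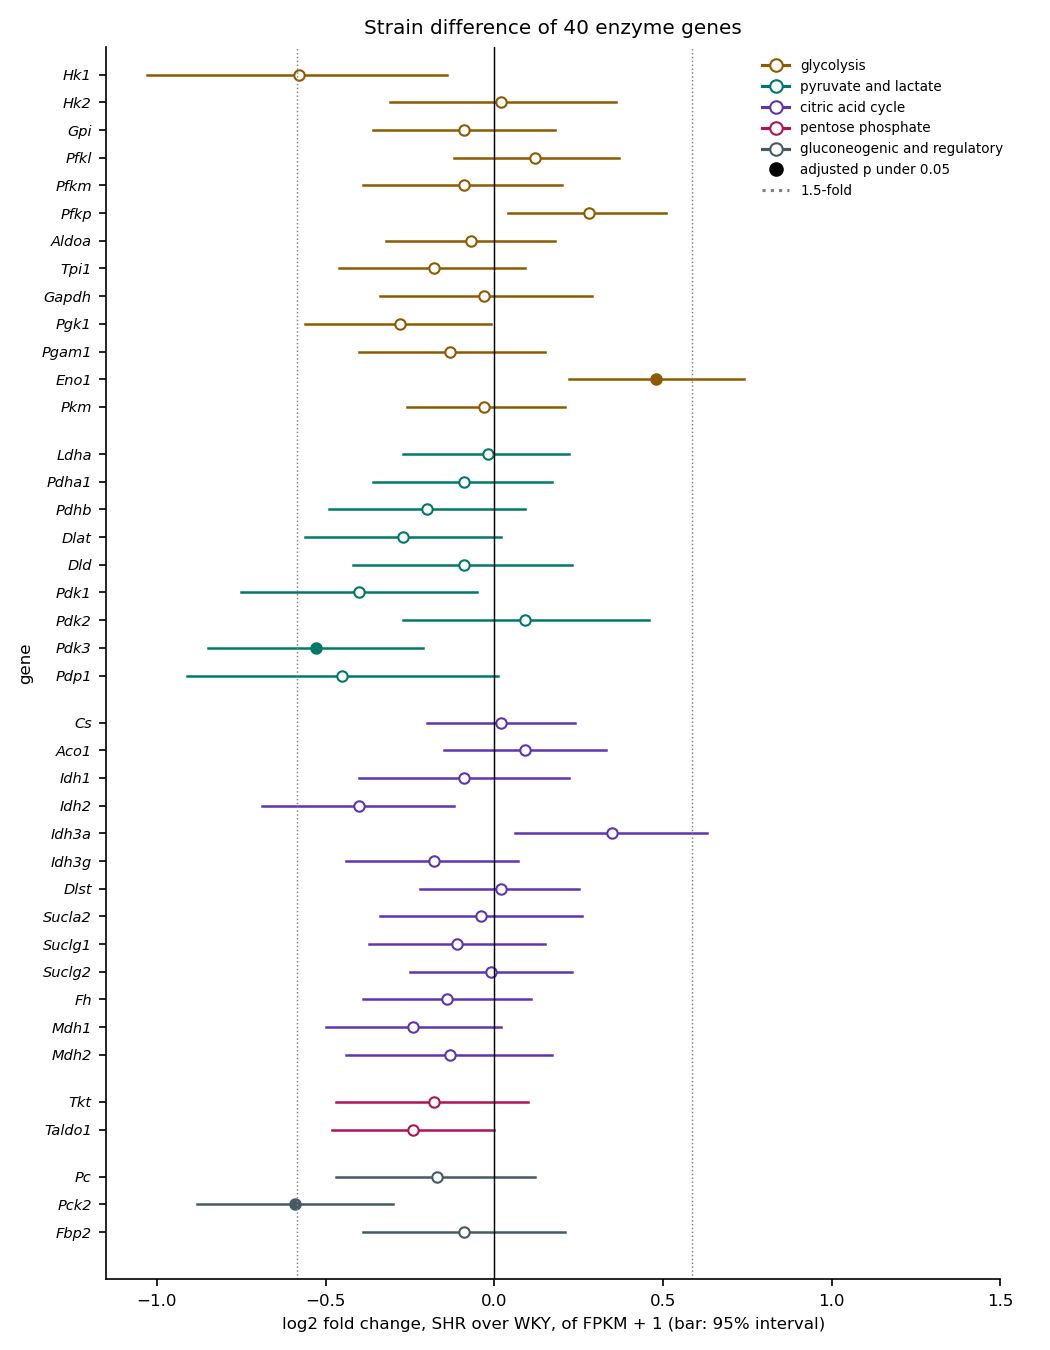
Log2 fold change of FPKM + 1, SHR over WKY, for the 40 tested enzyme genes (x axis) in 5 classes (colours, y axis), with bars for the 95% interval of limma's fit, filled points for an adjusted p under 0.05 and dotted lines at 1.5-fold. The 3 filled points are Eno1 at 0.48, Pdk3 at -0.53 and Pck2 at -0.59, and 32 of the 40 bars stay between the dotted lines.

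Glycolysis held the highest levels of the set, and of its 13 tested genes 1, Eno1, differed past the threshold (7.69%, against 10.9% of all tested genes). Gapdh, glyceraldehyde-3-phosphate dehydrogenase, had the highest level of all, at 2060.14, 1772.03, 1830.88 and 1329.11 FPKM in SHR replicates 1 to 4 and at 1625.78, 1939.87, 1589.29 and 1903.32 FPKM in WKY replicates 1 to 4. The strains overlapped, and the 95% interval of the log2 fold change ran from -0.34 to 0.29. Aldoa (aldolase) followed at 1290.5 ± 111.3 FPKM in SHR and 1353.6 ± 109.6 FPKM in WKY, and Pkm (pyruvate kinase) at 780.4 ± 40.7 FPKM in SHR and 794.9 ± 54.7 FPKM in WKY (SD, n = 4 each, as for all means below). The intervals were -0.32 to 0.18 for Aldoa and -0.26 to 0.21 for Pkm. Gapdh and other abundant glycolytic genes have many processed pseudogenes, and how reads shared with these copies were assigned is not known, which leaves their levels uncertain.

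Eno1 (ENSRNOG00000017895), which makes phosphoenolpyruvate, stood at 743.33, 660.65, 648.8 and 565.06 FPKM in SHR replicates 1 to 4 and at 422.24, 439.34, 483.21 and 529.59 FPKM in WKY. Every SHR library lay above every WKY library, as for 5.28% of all tested genes, although the lowest SHR and the highest WKY library were close. The mean was 654.5 ± 72.9 FPKM in SHR and 468.6 ± 48.1 FPKM in WKY, and Eno1 rose by 0.48 ± 0.12 on the log2 scale (± is the SE for log2 fold changes, limma adjusted p = 0.0252). Its neighbours in the pathway, Pgam1 just before it and Pkm just after it, had log2 fold changes of -0.13 and -0.03, neither past the threshold. The Eno1 call was lost without WKY replicate 1 (adjusted p = 0.0869) or 2 (0.0774) and without SHR replicate 1 (0.0593), 2 (0.0641) or 3 (0.0571), with log2 fold changes of 0.42 to 0.55 over all 8 fits without a library.

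At the entry step, hexokinase traps glucose in the cell by phosphorylating it. Hk2 supplied most hexokinase transcripts, 88.8% to 93.0% of the sum of Hk1 and Hk2 in SHR and 85.3% to 90.2% in WKY. Hk2 itself was at 131.2 ± 23.6 FPKM in SHR and 128.8 ± 22.2 FPKM in WKY. Hk1 had the lowest fold change among glycolytic genes, at 9.77, 9.16, 19.77 and 12.75 FPKM in SHR and at 16.34, 17.33, 20.2 and 22.44 FPKM in WKY. In 3 SHR libraries it was below every WKY library, while SHR replicate 3 lay among the WKY values. Its log2 fold change of -0.58 ± 0.20 did not pass (adjusted p = 0.0866), and without SHR replicate 3 it was -0.80 and passed (0.0104).

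Phosphofructokinase catalyses the committed step, and its subunit genes Pfkl (liver type) and Pfkp (platelet type) were present at similar levels per length, with the muscle type Pfkm at about 2 FPKM. Of their summed FPKM, Pfkl made up 45.2% to 54.0% in SHR and 49.9% to 55.7% in WKY, and Pfkp 44.7% to 53.8% in SHR and 43.0% to 48.6% in WKY. Pfkm gave 0.747% to 1.28% in SHR and 1.01% to 1.56% in WKY. Pfkp was at 95.84, 91.12, 109.3 and 100.36 FPKM in SHR and at 90.96, 85.97, 73.83 and 76.45 FPKM in WKY. These values did not overlap, by a margin of less than 1 FPKM, and the log2 fold change of 0.28 ± 0.11 did not pass (adjusted p = 0.126) except after quantile normalization (0.0400). Pfkfb3, which makes the activator fructose-2,6-bisphosphate, was barely transcribed, at 0.588 ± 0.249 FPKM in SHR and 0.510 ± 0.170 FPKM in WKY.

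**Figure D2:**
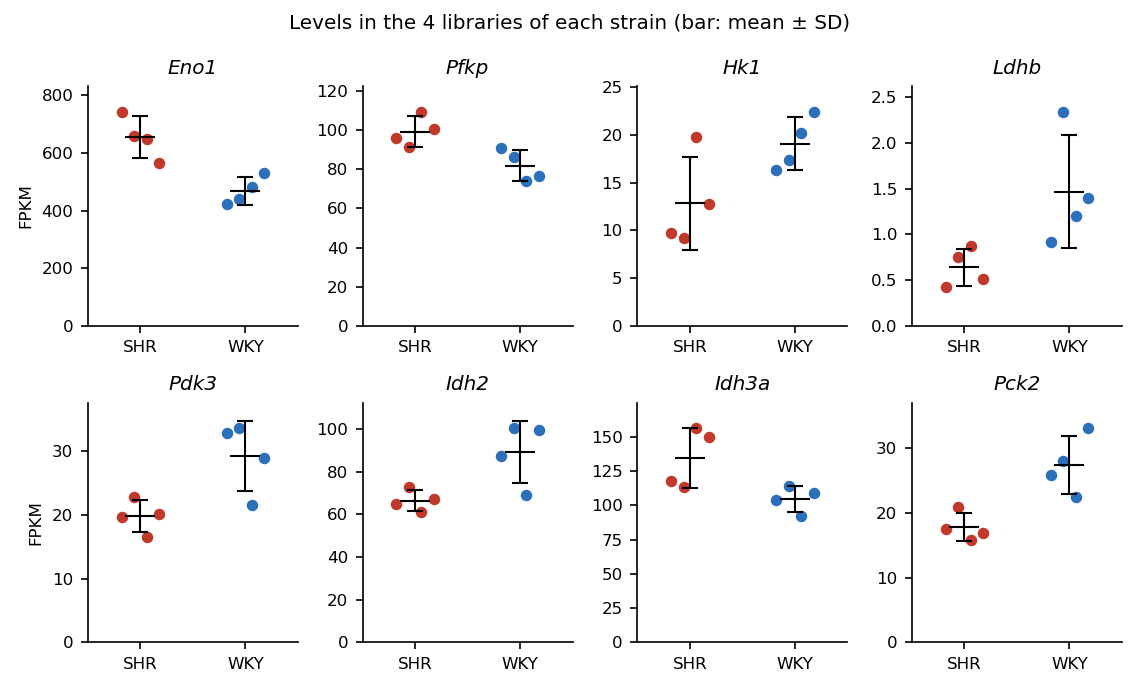
FPKM (y axis, from 0) of 8 enzyme genes in the 4 SHR (red) and 4 WKY (blue) libraries, with bars for the mean and SD. All SHR points lie above all WKY points for Eno1 and Pfkp and below them for Ldhb and Pck2, while the strains overlap for Hk1, Pdk3, Idh2 and Idh3a. Ldhb was under the filter and not tested. These 8 genes do not stand for the set. Of the 40 tested genes, 2 lay wholly above WKY in SHR and 1 wholly below, against 5.28% and 10.8% of all tested genes.

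At the branch between lactate and the mitochondrion, 1 of 9 tested genes differed past the threshold (11.1%, near the 10.9% of all tested genes). That gene was the pyruvate dehydrogenase kinase Pdk3, which was lower in SHR. Ldha, the lactate dehydrogenase subunit that favours lactate formation, was at 875.0, 798.67, 908.61 and 832.24 FPKM in SHR and at 924.59, 889.91, 749.45 and 917.34 FPKM in WKY. Its 95% interval was -0.27 to 0.22 on the log2 scale. Ldhb, the subunit that dominates in heart, was nearly absent, at 0.43, 0.75, 0.87 and 0.51 FPKM in SHR and at 0.92, 2.34, 1.2 and 1.4 FPKM in WKY. Each SHR value was below each WKY value, but the gene was under the filter, and in the fit without a filter its log2 fold change was -0.57 ± 0.16 (adjusted p = 0.0417), a scale that understates changes this close to 0. Ldhb made up 0.0491% to 0.0957% of lactate dehydrogenase FPKM in SHR and 0.0994% to 0.262% in WKY, so Ldha supplied nearly all transcripts in both strains.

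The catalytic subunits of the pyruvate dehydrogenase complex did not pass the threshold. They are Pdha1 and Pdhb of the first component, Dlat of the second and Dld of the third, and their log2 fold changes ran from -0.27 (Dlat) to -0.09 (Pdha1 and Dld). Of the kinases that inactivate the complex, Pdk3 (ENSRNOG00000012513) was at 19.62, 22.79, 16.59 and 20.2 FPKM in SHR and at 32.88, 33.61, 21.6 and 28.99 FPKM in WKY. Only WKY replicate 3 reached the SHR range. Pdk3 fell by 0.53 ± 0.15 on the log2 scale (limma adjusted p = 0.0393). The call was lost without WKY replicate 1 (0.116), 2 (0.116) or 4 (0.0995) and without SHR replicate 1 (0.0631), 3 (0.127) or 4 (0.0545), with log2 fold changes of -0.66 to -0.45 over the 8 fits.

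The other kinases did not pass. Pdk1, known as a target of the hypoxia factor HIF-1, averaged 18.9 ± 4.79 FPKM in SHR and 24.8 ± 2.58 FPKM in WKY (log2 fold change -0.40 ± 0.16, adjusted p = 0.135). Pdk2 had the highest fold change of this class, with 10.77, 11.16, 9.66 and 6.31 FPKM in SHR and 6.96, 8.89, 9.42 and 9.46 FPKM in WKY, and the strains overlapped fully (0.09 ± 0.17). Of the summed FPKM of Pdk1, Pdk2 and Pdk3, Pdk2 gave 15.1% to 23.8% in SHR and 10.4% to 18.1% in WKY. Pdp1, a phosphatase that reactivates the complex, was at 5.67 ± 1.2 FPKM in SHR and 8.34 ± 2.88 FPKM in WKY (log2 fold change -0.45 ± 0.21, adjusted p = 0.193).

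In the citric acid cycle 0 of 13 tested genes passed the threshold with limma, where 10.9% of all tested genes did. Even so, 2 of the 13 had an unadjusted p under 0.05, and the authors' deposited table gave q under 0.05 to 2 of them. Levels ran from 59.3 FPKM for Aco1 to 293.9 FPKM for Mdh2 as SHR means. Mdh2, mitochondrial malate dehydrogenase, had the highest mean of the class, with 330.61, 319.66, 272.02 and 253.2 FPKM in SHR and 332.79, 365.89, 253.96 and 341.95 FPKM in WKY. Cs, citrate synthase, the entry of the cycle, was at 167.72, 179.52, 188.73 and 189.11 FPKM in SHR and at 177.8, 195.76, 164.34 and 178.25 FPKM in WKY, with an interval of -0.20 to 0.24. The strains overlapped for each of the 13 genes.

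The isocitrate dehydrogenases held both ends of the fold changes of the cycle. Idh3a, the catalytic subunit of the NAD-linked enzyme that drives the cycle forward, was at 117.38, 113.66, 156.17 and 149.53 FPKM in SHR and at 103.87, 114.09, 91.83 and 108.93 FPKM in WKY. SHR replicates 3 and 4 stood well above the rest, and SHR replicate 2 was just below WKY replicate 2. The log2 fold change was 0.35 ± 0.13 (adjusted p = 0.109, and 0.0385 after quantile normalization). Idh3g, a regulatory subunit of the same enzyme, had a log2 fold change of -0.18 ± 0.12. Idh2, the NADP-linked enzyme of the mitochondrion, was at 64.95, 72.6, 61.1 and 66.92 FPKM in SHR and at 87.31, 100.3, 69.11 and 99.26 FPKM in WKY. Only WKY replicate 3 overlapped with SHR. Its log2 fold change was -0.40 ± 0.13 (adjusted p = 0.0651, and 0.0118 without WKY replicate 3). The authors' deposited table gave q of 0.0421 for Idh3a and 0.0388 for Idh2.

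The remaining steps of the cycle did not pass either. Log2 fold changes of Dlst of the 2-oxoglutarate dehydrogenase complex, the succinyl-CoA ligase genes Suclg1, Suclg2 and Sucla2, and Fh (fumarase) ranged from -0.14 for Fh to 0.02 for Dlst. Of the cytosolic partner enzymes, Aco1, which is also the iron regulatory protein, was at 59.3 ± 4.57 FPKM in SHR and 55.8 ± 5.39 FPKM in WKY. Mdh1 was at 263.9 ± 15.8 FPKM in SHR and 313.6 ± 42.2 FPKM in WKY (log2 fold change -0.24, adjusted p = 0.217), and Idh1 at 181.1 ± 15.4 FPKM in SHR and 195.1 ± 38.8 FPKM in WKY.

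Of the gluconeogenic genes, Pck2 was lower in SHR, with the smallest adjusted p of the 40 genes. This enzyme turns mitochondrial oxaloacetate into phosphoenolpyruvate. Pck2 (ENSRNOG00000018536) was at 17.51, 20.93, 15.88 and 16.89 FPKM in SHR and at 25.95, 28.08, 22.45 and 33.13 FPKM in WKY, and every SHR value was below every WKY value, as for 10.8% of all tested genes. Its mean was 17.8 ± 2.19 FPKM in SHR and 27.4 ± 4.47 FPKM in WKY. It fell by 0.59 ± 0.13 on the log2 scale (limma adjusted p = 0.0146). The call held in 6 of 8 fits without a library and was lost without WKY replicate 4 (0.0559) or SHR replicate 3 (0.0533).

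The other genes of this class and of the pentose phosphate pathway did not pass. Pc, pyruvate carboxylase, which refills oxaloacetate, had a log2 fold change of -0.17 ± 0.14. Fbp2, a fructose-1,6-bisphosphatase best known from muscle, was at 88.5, 79.74, 73.38 and 88.05 FPKM in SHR and at 106.99, 97.99, 70 and 80.88 FPKM in WKY, with overlapping strains. Taldo1 (transaldolase) was at 364.01, 324.86, 380.31 and 307.46 FPKM in SHR and at 415.28, 416.99, 374.83 and 415.12 FPKM in WKY. Tkt (transketolase) was at 221.98, 220.94, 193.47 and 182.98 FPKM in SHR and at 237.76, 261.2, 182.42 and 256.08 FPKM in WKY. For both, the strains overlapped through WKY replicate 3 (log2 fold changes -0.24 ± 0.11 and -0.18 ± 0.13, adjusted p = 0.175 and 0.391).

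WKY replicate 3 had low values for most of the 40 genes. It was the lowest WKY library for 33 of the 40 tested genes and the lowest of all 8 libraries for 15. Relative to the mean of the 8 libraries, the median of the 40 genes was -0.03, -0.05, -0.10 and -0.09 in SHR replicates 1 to 4 and 0.10, 0.18, -0.15 and 0.12 in WKY replicates 1 to 4 (log2). The median over all tested genes was -0.03 in WKY replicate 3. In the same library the immune markers with a row summed highest, at 41.2 FPKM, and Hbb, a haemoglobin gene of red cells, stood at 385.56 FPKM, against 15.59 to 74.1 FPKM in SHR and 18.5 to 133.95 FPKM in the other WKY libraries. The 13 mitochondrially encoded genes took 18.8% of its signal, against 14.1% to 19.4% in SHR and 12.1% to 15.7% in the other WKY libraries. The part of these features in the low enzyme values was not tested. Without WKY replicate 3 the median log2 fold change of the 40 genes was -0.19, against -0.09 for all genes. Of the 40, 1 rose (Eno1) and 4 fell (Pck2, Pdk3, Idh2 and Pgk1, the last with limma adjusted p = 0.0288). Calls over all genes also grew in that fit. There 443 of 10946 tested genes rose and 1126 fell, against 376 and 828 of 11069 with all libraries.

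**Figure D3:**
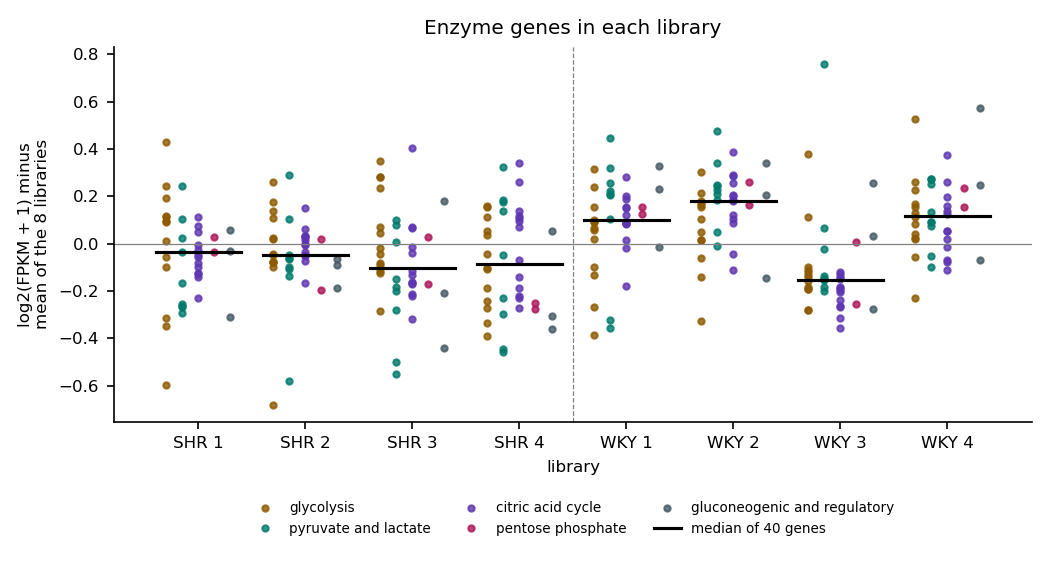
Log2(FPKM + 1) of each of the 40 tested enzyme genes minus its mean over the 8 libraries (y axis), by library (x axis, SHR left of the dashed line) and class (colours), with a line at the median of the 40 genes. The medians are -0.10 to -0.03 in SHR and 0.10 to 0.18 in 3 WKY libraries, while WKY replicate 3 lies lowest at -0.15.

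Ratios of partner genes within a library do not depend on how libraries are scaled, so they were compared for 10 pairs of isozymes, subunits or cytosolic and mitochondrial forms. With 4 libraries a strain, an exact two-sided permutation test over its 70 assignments cannot go below p = 0.0286. After Benjamini-Hochberg adjustment 0 of the 10 pairs passed. A lone pair at that floor could not pass over 10 pairs, so this count does not show equal ratios. The strains did not overlap for 1 pair, Ldhb over Ldha, whose log2 ratio averaged -10.44 ± 0.47 in SHR and -9.30 ± 0.57 in WKY (exact p = 0.0286, adjusted p = 0.114). Hk2 over Hk1 averaged 3.40 ± 0.31 in SHR and 2.75 ± 0.30 in WKY on the log2 scale (exact p = 0.0571, adjusted p = 0.114). Idh1 over Idh2 averaged 1.45 ± 0.09 in SHR and 1.13 ± 0.23 in WKY (exact p = 0.0571, adjusted p = 0.114). The same p-values were obtained for Pdk1 over Pdk2 and Pdha1 over Pdhb. Pdk1 over Pdk2 averaged 1.00 ± 0.31 in SHR and 1.52 ± 0.33 in WKY, and Pdha1 over Pdhb -0.45 ± 0.06 and -0.56 ± 0.07. The cytosolic and mitochondrial malate dehydrogenases, Mdh1 over Mdh2, stayed close to equal FPKM, at ratios of 0.839 to 0.969 in SHR and 0.914 to 1.02 in WKY. Sucla2 over Suclg2, the ADP- and GDP-linked succinyl-CoA ligase subunits, gave 0.321 to 0.402 in SHR and 0.348 to 0.401 in WKY. Both pairs of ranges overlap, with exact p of 0.143 for the malate dehydrogenases and 0.83 for the ligases.

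**Figure D4:**
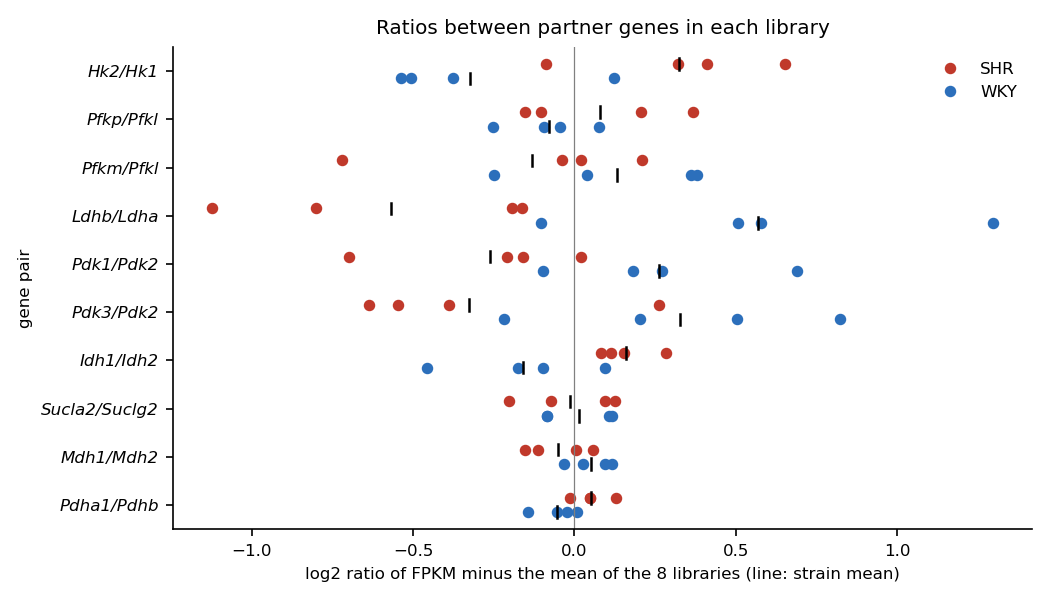
Log2 ratio of FPKM for 10 gene pairs (y axis), shown minus the mean of the 8 libraries (x axis), in SHR (red, upper) and WKY (blue, lower), with a short line at each strain's mean. The strains separate only for Ldhb/Ldha, where the SHR mean is -10.44 and the WKY mean -9.30 before centring. The points of Sucla2/Suclg2, Mdh1/Mdh2 and Pdha1/Pdhb lie close together. For Pdha1/Pdhb the means before centring are -0.45 in SHR and -0.56 in WKY (exact permutation p = 0.0571).

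Other genes of the same pathways, from lists of 86 symbols, were measured beside them. Of these, 73 had a row and 70 were tested, and 3 rose, 6 fell and 61 did not pass (12.9%, against 10.9% of all tested genes). Glud1, glutamate dehydrogenase, which links glutamate to the cycle, had a log2 fold change of -0.11 ± 0.12 (adjusted p = 0.575).

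The succinate dehydrogenase genes Sdha, Sdhb, Sdhc and Sdhd had means of 289.2 to 412.4 FPKM in SHR and 316.7 to 423.4 FPKM in WKY. None of these 4 passed limma's test, with log2 fold changes from -0.20 to -0.03. Of the 11 other genes of pyruvate and lactate handling 0 passed with limma, against 10.9% of all tested genes, and 3 had an unadjusted p under 0.05. The authors' deposited table called 0 of the 12 with a row, against 15.3% of all its genes. For the mitochondrial pyruvate carrier subunits Mpc1 and Mpc2, which bring pyruvate into the mitochondrion, log2 fold changes were -0.24 and -0.22.

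In the pentose phosphate list Rbks, ribokinase, which brings free ribose into the pathway, was at 17.03, 15.22, 17.17 and 15.91 FPKM in SHR and at 11.47, 10.3, 10.27 and 12.18 FPKM in WKY, and the strains did not overlap. It averaged 16.3 ± 0.932 FPKM in SHR and 11.1 ± 0.935 FPKM in WKY and rose by 0.53 ± 0.11 on the log2 scale (limma adjusted p = 0.00839). It passed in every fit without a library.

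Around glycolysis 2 of 16 other genes rose, 2 fell and 12 did not pass (25.0% called, against 10.9% of all tested genes). Among the 12 was Pfkfb4 (limma adjusted p = 0.105), to which the authors' deposited table gave q under 0.05. Minpp1, a phosphatase of inositol phosphates that can also act on 2,3-bisphosphoglycerate, averaged 129.0 ± 16.6 FPKM in SHR and 75.5 ± 2.77 FPKM in WKY (log2 fold change 0.76 ± 0.11, limma adjusted p = 0.00140). Adpgk, a glucokinase that uses ADP, averaged 6.19 ± 0.224 FPKM in SHR and 9.64 ± 1.43 FPKM in WKY (adjusted p = 0.0115). Pfkfb2, another bifunctional enzyme of fructose-2,6-bisphosphate, was at 10.73, 16.22, 18.85 and 17.65 FPKM in SHR and at 10.75, 11, 10.43 and 9.61 FPKM in WKY. SHR replicate 1 fell within the WKY range, and the rise of 0.53 ± 0.16 on the log2 scale (limma adjusted p = 0.0460) was lost in 7 of 8 fits without a library, where adjusted p ran from 0.00318 (without SHR replicate 1) to 0.147, and held in 7 of the 9 other alternatives (0.00131 to 0.0531). Eno3, the muscle enolase, averaged 3.5 ± 0.447 FPKM in SHR and 5.07 ± 0.344 FPKM in WKY and fell by 0.44 ± 0.12 on the log2 scale (limma adjusted p = 0.0328). Leaving out 1 library gave adjusted p of 0.0236 to 0.113, past the threshold in 1 of 8 fits, and the call also held in only 5 of the 9 other alternatives (0.0275 to 0.146). Eno3 made up 0.468% to 0.568% of the summed FPKM of both enolases in SHR and 1.01% to 1.18% in WKY.

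**Figure D5:**
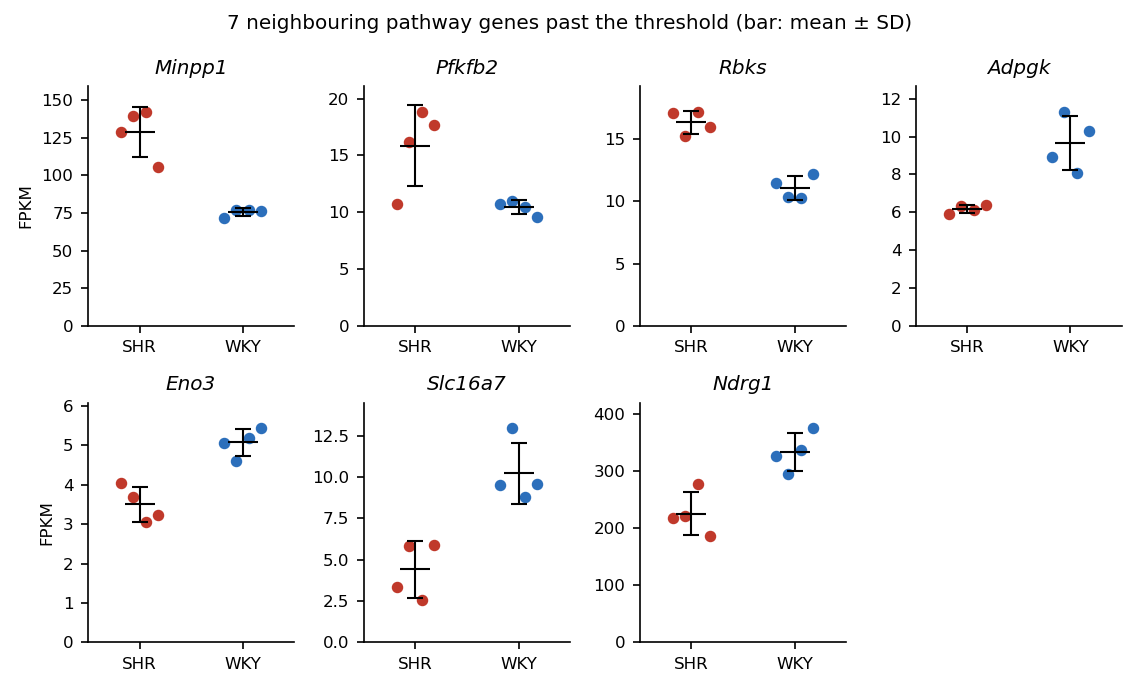
FPKM (y axis, from 0) of 7 neighbouring pathway genes past the threshold, in 4 SHR (red) and 4 WKY (blue) libraries, with bars for the mean and SD. Minpp1 lies at 105.64 to 142.32 FPKM in SHR and 71.39 to 77.27 FPKM in WKY, and of the 7 genes the strains overlap only for Pfkfb2.

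Of 7 tested genes of sugar and lactate transport 1 fell and 6 did not pass (14.3% called, against 10.9% of all tested genes). Slc16a7, the monocarboxylate transporter MCT2, was at 3.35, 5.81, 2.58 and 5.92 FPKM in SHR and at 9.55, 12.96, 8.82 and 9.57 FPKM in WKY. The strains did not overlap, and Slc16a7 fell by 1.10 ± 0.21 on the log2 scale (limma adjusted p = 0.00635). The far more abundant Slc16a1 (MCT1), which carries lactate and butyrate, was at 160.7 ± 7.44 FPKM in SHR and 176.9 ± 15.2 FPKM in WKY and did not pass (adjusted p = 0.419). Its partner Bsg, basigin, was at 904.9 ± 126.0 FPKM in SHR and 920.2 ± 73.8 FPKM in WKY.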

How the data were processed

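Per the labels' protocols, libraries were directional and paired-end, from poly(A)-selected epithelial RNA. The submitters' processing notes name FastQC, Trimmomatic and STAR without roles. The build, annotation, counting and use of strand are not stated there. The deposited table holds 1 value per gene and library, taken as FPKM because value times an effective length (from the authors' mean CPM, read only as a score for this step) sums to 982968 to 1017515 per library, a total that follows in part by construction. It also holds the authors' log2 fold change, p-value and q-value. Counts were not used here, and counting error is therefore unknown.

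Genes reaching 1 FPKM in 4 or more libraries were tested on log2(FPKM + 1) with limma 3.58.1 in R 4.3.3 (trend and robust settings, two-sided, Benjamini-Hochberg). This scale understates changes of low genes. The fit was tested on simulated data. Members and lists were chosen with earlier results of these data known. Values by library are given for members past the threshold and, in each class, for the highest level and the largest and smallest fold change. Hk1, Ldhb, Pfkp, Cs and Tkt were added partly after their values were seen. Alternatives were pseudocounts of 0.1 and 5, no filter, 2 other scalings, plain empirical Bayes settings, the replicate block, each library left out and the authors' q-values. Scaling without the 13 mitochondrially encoded genes was added after seeing the data. Deviations of same-numbered libraries of both strains correlated at -0.11, -0.04, 0.46 and -0.29 for numbers 1 to 4, so the numbers were not taken as pairs, although those numbered 3 had the highest correlation of any SHR and WKY libraries. Results for a few listed pathway genes are not reported here.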

Additional observations from a re-analysis of the deposited data

Results flagged for a closer look

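Each strain's 4 values of a gene or ratio were examined for a library far from the other 3, judged by the gap to its neighbour over the whole range (Dixon's 95% critical value). Of 104 such groups 5 stood out, and chance gives about 1 in 20. In 4 of the 5 the library was WKY replicate 3 and the value was low: Pkm at 713.84 FPKM, Suclg1 at 155.87 FPKM, Fh at 144.15 FPKM and Taldo1 at 374.83 FPKM, where the gap was widest relative to the range (0.956). The other was Pgk1 in SHR replicate 3, low at 247.25 FPKM. These genes share their libraries, so the 5 are not independent of each other.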

How the results depend on the processing

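Over all genes, 376 were higher and 828 lower in SHR. The higher count was 642 after quantile normalization (with 644 lower), 541 after median centring (714 lower), 470 without the mitochondrially encoded genes (774 lower) and 675 by the authors' deposited table, and with 1 library left out 191 to 550 genes were higher and 440 to 1126 lower. Of the enzyme genes, 1 was called higher and 2 lower; the higher count was 3 after quantile normalization and 2 by the authors' deposited table, the lower count 4 with the replicate number as a block and 4 by the authors' deposited table, and with 1 library left out 0 to 1 were higher and 0 to 4 lower. The block, whose numbers were not taken as pairs in the main fit, added Hk1 and Idh2. Eno1, Pck2 and Pdk3 were called in each of the 9 alternatives that kept all libraries.

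Signs turned only for genes not past the threshold. Quantile normalization gave Gpi 0.06, Pfkm 0.03, Aldoa 0.20, Gapdh 0.26, Pgam1 0.03, Pkm 0.17, Ldha 0.20, Dld 0.01, Idh1 0.02, Sucla2 0.04, Suclg2 0.15, Mdh2 0.01, Bsg 0.17, Sdhb 0.11 and Sdha 0.14 on the log2 scale, against small negative values as deposited. Median centring gave 0.02 for Gapdh, Pkm, Ldha, Bsg, Sdhb and Sdha, 0.01 for Sucla2 and 0.04 for Suclg2. Without the mitochondrially encoded genes Pkm and Ldha were at 0.01 and Suclg2 at 0.02. The authors' deposited table gave 0.04 for Gapdh, 0.01 for Ldha and Sdhb, and 0.02 for Suclg2 and Bsg. Leaving out 1 library gave ranges across 0 for Hk2 (-0.07 to 0.13), Gpi (-0.14 to 0.01), Pfkm (-0.15 to 0.01), Gapdh (-0.11 to 0.10), Ldha (-0.09 to 0.01), Cs (-0.02 to 0.06), Dlst (-0.04 to 0.06), Sucla2 (-0.13 to 0.03), Suclg2 (-0.07 to 0.03), Bsg (-0.10 to 0.07), Sdhb (-0.12 to 0.02) and the log2 ratio of Sucla2 to Suclg2 (-0.07 to 0.03). The cause was not tested. Read depth is unknown, so Ldhb, Pfkfb3 and Pfkm, all under 3 FPKM, are the least certain levels.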

Other observations

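The system of the hypoxia-inducible factors, known activators of glycolytic genes, was read as a list of 15 genes. All 15 were tested, and 0 rose, 1 fell and 14 did not pass limma's test (6.67% called, against 10.9% of all tested genes). Their log2 fold changes ran from -0.57 to 0.36 with a median of 0.00. The list mixes the factors with their regulators and targets, so this median does not describe the state of the system. An unadjusted p under 0.05 was found for 4 of the 15, against 3037 of all 11069 tested genes. Ndrg1, a hypoxia-inducible gene of epithelia, was at 218.67, 220.63, 276.8 and 186.47 FPKM in SHR and at 326.77, 295.47, 337.57 and 375.12 FPKM in WKY (log2 fold change -0.57 ± 0.13, adjusted p = 0.0162). Its call was lost without 1 of the 8 libraries (adjusted p of 0.00861 to 0.0645) and in 1 of the 9 other alternatives. Hif1a was at 41.2 ± 9.44 FPKM in SHR and 38.6 ± 4.73 FPKM in WKY (adjusted p = 0.811).

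In 3 genes chosen after their values were seen, replicate 3 stood highest in both strains. Slc2a1, the glucose transporter GLUT1, was at 81.65, 89.22, 145.09 and 62.12 FPKM in SHR and at 55.63, 57.75, 102.54 and 86.51 FPKM in WKY. Pck1, the cytosolic carboxykinase, was at 73.63, 90.95, 127.9 and 63.09 FPKM in SHR and at 58.73, 56.1, 108.52 and 74.11 FPKM in WKY. Vegfa, a growth factor of blood vessels, was at 8.62, 8.79, 14.48 and 8.11 FPKM in SHR and at 6.81, 8.1, 11.83 and 8.06 FPKM in WKY. Of the 15 hypoxia system genes, SHR replicate 3 was the highest SHR library for 6 (40%, against 17.6% of all tested genes), and WKY replicate 3 the highest WKY library for 6 (40%, against 23.3%). In the other lists WKY replicate 3 was the highest WKY library for 3 of 16 other genes of glycolysis and glucose (18.8%), 2 of the 40 enzyme genes (5.00%), 1 of 11 other genes of pyruvate and lactate handling (9.09%), 0 of 12 other genes of the citric acid cycle and 0 of 9 of the pentose phosphate pathway and 3 of 7 transport genes (42.9%). SHR replicate 3 was the highest SHR library for 31.2% of the other genes of glycolysis and glucose and 42.9% of the transport genes. It was highest for 20.0% of the 40 enzyme genes and 18.2% of the other genes of pyruvate and lactate handling. For the other genes of the citric acid cycle and of the pentose phosphate pathway the shares were 16.7% and 11.1%. Within each strain the library numbered 3 was also highest in Hbb, at 74.1 FPKM in SHR and 385.56 FPKM in WKY. The same held for the summed immune markers, at 19.6 FPKM in SHR and 41.2 FPKM in WKY. The part of these features in the pattern was not tested. What else the libraries numbered 3 share is not given in the labels.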
